A study of Mus musculus with 6 samples.

Results

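The translation initiation factors form a named gene family, and its probes were taken by symbol alone: every probe on the array whose symbol begins with Eif and a digit from 1 to 6, without the Eif2ak kinases. This gave 41 of the 17850 genes on the array, read by 67 of its 25697 probes. The array writes eIF3 subunits in an older form, and Eif3h appears there as Eif3s3. The family itself was chosen by a measured value, the difference of Eif3h between Foxp1-transfected and control cells, which was the lowest of all tested probes. The values of Eif3h in that comparison are therefore a description, without a test. The remaining members entered by name, whatever their values.

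Translation initiation brings the small ribosomal subunit and the initiator tRNA to the start codon of an mRNA. The complex eIF4F binds the cap of the mRNA and unwinds its leader, eIF2 delivers the initiator tRNA, and eIF3 holds the small subunit, the mRNA and the other factors together. Phosphorylation of eIF2 and binding of eIF4E by its inhibitors are the main points at which cells slow initiation, in neurons as elsewhere. eIF3h carries an MPN domain, a fold that it shares with eIF3f and with subunits of the proteasome lid and the COP9 signalosome.

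The cells were STHdh cells, an immortalized mouse line of striatal origin. Gene expression was measured with 6 Illumina beadchips, 3 hybridised with RNA of control cells and 3 with RNA of cells transfected with Foxp1, a forkhead transcription factor. The controls are titled with the plasmid name PcDNA and described as wild-type, so the labels do not settle whether they carried an empty plasmid. No promoter, time after transfection or share of transfected cells is stated, nor whether the replicates were separate cultures, so the p-values below measure only the spread between these samples. The comparison asks which transcripts differ when Foxp1 is raised.

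The Foxp1 probe had intensities of 688, 621 and 1048 on control arrays 1 to 3 and of 4967, 4979 and 5250 on Foxp1 arrays 1 to 3. The groups did not overlap, and Foxp1 was 6.13-fold higher in the transfected cells, a log2 difference of 2.62 ± 0.17 (SE, limma adjusted p = 5e-04). Median intensity over all probes was 29.2 to 38.3 on the replicate 1 and 2 arrays and 64.5 and 77.0 on the replicate 3 arrays, before normalization. Of the 12 striatal neuron markers listed, 2 were kept for testing, Drd2 and Ppp1r1b. Ppp1r1b was detected on 3 control and 0 Foxp1 arrays, so it was kept only through the controls, where it was higher. Its detection p on the Foxp1 arrays was 0.0589, 0.0501 and 0.099, just over the limit of 0.05. The difference of -0.45 ± 0.13 (SE, limma adjusted p = 0.124) is therefore a description. Its groups did not overlap, as held in this direction for 13.4% of all kept probes. Drd2 differed by 0.06 ± 0.28 (SE), with overlapping groups. Of the 10 glial and microglial markers 0 were kept, and of the 6 progenitor markers 3 were kept, Nes, Vim and Sox2, while Pax6, Msi1 and Fabp7 were not. Of 7 fibroblast and mesenchymal markers 4 were kept, Col1a2 and Thy1 were not, and Fn1 matched no probe. The summed linear intensities of the 4 after normalization ran from 5257 to 6107 in controls and from 4145 to 4664 in Foxp1 cells. Col1a1, the brightest of the 4, weighs most in this sum. Of the 4 markers 1 fell (Pdgfra, -0.61 ± 0.12, SE, limma adjusted p = 0.0471, or 0.0524 with the replicate number as a block). Over all kept probes 1.06% were lower at an adjusted p under 0.05. The part of the markers in the results was not tested. In such bulk RNA, fewer cells of a kind and less RNA per cell cannot be told apart.

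A probe was kept for testing when at least 3 of the 6 arrays detected it, at a detection p under 0.05 against the array's negative controls. Of the 67 family probes 52 were kept, and these read 31 genes. All values called levels are normalized log2 intensities, and all differences are Foxp1-transfected minus control on that scale, from 3 arrays per group. Levels are compared between arrays for 1 probe at a time, since the brightness of different probes cannot be compared.

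Eif3h was much lower in the transfected cells. Its only probe (ILMN_1215703) had background-subtracted intensities of 447, 411 and 782 on control arrays 1 to 3 and of 101, 118 and 199 on Foxp1 arrays 1 to 3. The highest Foxp1 value came from the bright replicate 3 array and was still below the lowest control value. After normalization the levels were 9.29, 9.16 and 9.04 in controls and 7.10, 7.30 and 7.36 in Foxp1 cells. Control cells had a mean of 9.16 ± 0.12 (SD, n = 3), and Foxp1 cells one of 7.25 ± 0.13 (SD, n = 3). The difference was -1.91 ± 0.11 (SE), which is 3.75-fold lower. No other of the 12136 kept probes had a lower difference.

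All 6 arrays detected the Eif3h probe, with a detection p of 0.00376 on each Foxp1 array, so both groups hold a measured level and not a bound. Within each replicate number the normalized difference was -2.18, -1.85 and -1.68 for numbers 1 to 3. The intensity ratio of control over Foxp1 was 4.42, 3.47 and 3.92. The median of the same differences over the other kept eIF3 probes was -0.03, 0.04 and 0.07, a comparison that the choice of Eif3h by its difference on these arrays fixes in advance. Where in the transcript this probe lies is not given in the sources used here, and no other probe on the array carries a name of Eif3h.

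The other eIF3 subunits showed no fall that passed the threshold. Beside Eif3h, 15 probes for 9 eIF3 genes were kept, and 0 passed an adjusted p of 0.05 with limma. Over all kept probes 2.61% passed, 1.55% higher and 1.06% lower in Foxp1 cells. With the replicate number as a block 3.67% of all kept probes passed, and still 0 of the 15. The 15 differences had a median of 0.02, against 0.00 over all kept probes, and 10 were positive and 5 negative. The lowest was -0.07 ± 0.15 (SE) for Eif3f, and the lowest end of any of the 15 intervals of 95% confidence was -0.42. The Eif3h difference of -1.91 lies below that end, but Eif3h was chosen as the lowest of all kept probes. Every other probe lies above it by that choice, so setting the 15 probes against it is a description and not a test.

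Eif3f, the other MPN-domain subunit and a direct neighbour of eIF3h in the complex, had levels of 14.17, 14.14 and 14.48 in controls and of 14.12, 14.00 and 14.46 in Foxp1 cells. The groups overlapped, and in both of them the replicate 3 array was the highest (adjusted p = 0.846). Eif3c, a scaffold subunit of the core, had levels of 12.50, 12.41 and 12.53 in controls and of 12.45, 12.41 and 12.58 in Foxp1 cells, a difference of 0.00 ± 0.09 (SE).

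Eif3l, a PCI-domain subunit of the same core, had differences of 0.03 ± 0.10 and -0.03 ± 0.10 (SE) on its 2 probes. On ILMN_2613044 its levels were 13.89, 13.83 and 13.66 in controls and 13.87, 13.78 and 13.82 in Foxp1 cells. On ILMN_2720520 they were 14.36, 14.17 and 14.08 in controls and 14.21, 14.13 and 14.19 in Foxp1 cells. On both probes all Foxp1 arrays lay within the range of the controls.

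**Figure D1:**
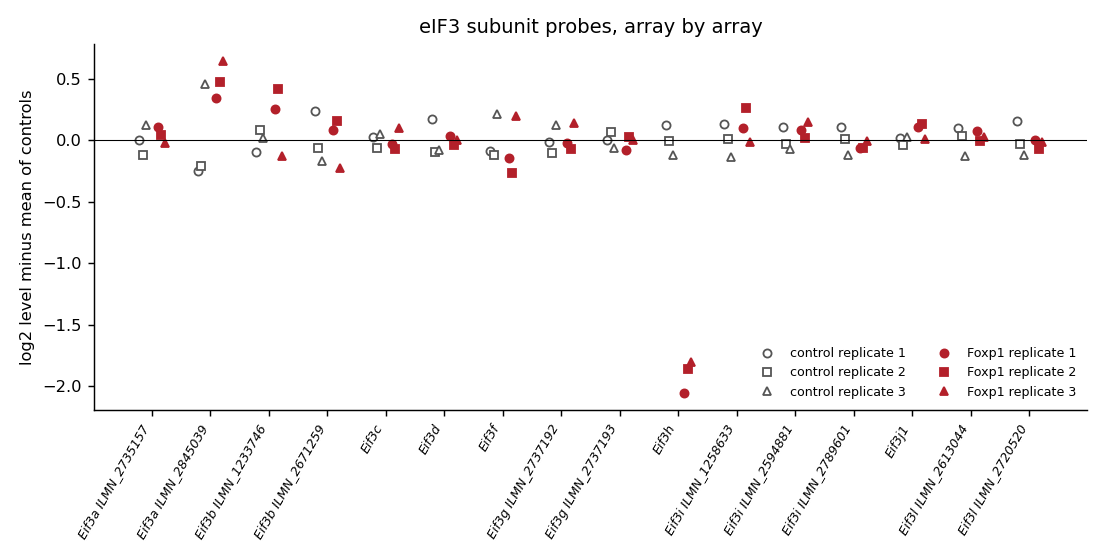
Levels of the 16 kept eIF3 subunit probes on each array, as the log2 level minus the mean of the 3 control arrays of the same probe (vertical axis). Open grey symbols are control arrays and filled red symbols Foxp1 arrays, with 1 shape per replicate number. The 3 Foxp1 arrays of Eif3h lie near -1.91, while for every other probe the groups overlap.

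The subunits of the peripheral module, which contacts the mRNA entry side of the ribosome, were also close to 0. Eif3g, an RNA-binding subunit, had levels of 13.58, 13.49 and 13.72 in controls and of 13.57, 13.52 and 13.74 in Foxp1 cells on ILMN_2737192. Replicate 3 was the highest array of both groups there, and the differences of its 2 probes were 0.02 ± 0.11 and -0.02 ± 0.09 (SE).

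Eif3i, a WD-repeat subunit, was read by 3 probes. On ILMN_1258633 its levels were 12.69, 12.58 and 12.43 in controls and 12.66, 12.82 and 12.55 in Foxp1 cells. On ILMN_2594881 they were 14.24, 14.11 and 14.06 against 14.22, 14.15 and 14.29, and on ILMN_2789601 they were 13.82, 13.73 and 13.59 against 13.65, 13.65 and 13.71. The groups overlapped on each, with differences of 0.11 ± 0.11, 0.08 ± 0.10 and -0.05 ± 0.10 (SE) and adjusted p from 0.651 to 0.837.

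Eif3b, the scaffold of this module, had levels of 7.87, 8.05 and 7.99 in controls and of 8.22, 8.39 and 7.84 in Foxp1 cells on ILMN_1233746. Foxp1 replicate 3 was the lowest of the 6 arrays and the other two Foxp1 arrays the highest, so the groups overlapped, with a difference of 0.18 ± 0.15 (SE, adjusted p = 0.563). On ILMN_2671259 the levels were 12.62, 12.32 and 12.21 in controls and 12.47, 12.54 and 12.16 in Foxp1 cells, a difference of 0.00 ± 0.15 (SE, adjusted p = 0.993).

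Eif3d, a subunit that can bind the mRNA cap, had levels of 13.72, 13.45 and 13.46 in controls and of 13.58, 13.51 and 13.55 in Foxp1 cells. All Foxp1 arrays lay within the range of the controls, and the difference was 0.00 ± 0.10 (SE). Eif3j1, which encodes the loosely bound subunit eIF3j, had levels of 8.70, 8.65 and 8.71 in controls and of 8.79, 8.82 and 8.69 in Foxp1 cells and overlapped, with a difference of 0.08 ± 0.09 (SE, adjusted p = 0.672).

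Eif3a, the largest scaffold subunit, had probes that differed from each other. On ILMN_2735157 the levels were 12.85, 12.73 and 12.98 in controls and 12.96, 12.89 and 12.83 in Foxp1 cells, a difference of 0.04 ± 0.10 (SE, adjusted p = 0.874). On ILMN_2845039 they were 7.89, 7.94 and 8.61 in controls and 8.49, 8.62 and 8.79 in Foxp1 cells. Control replicate 3 overlapped the Foxp1 arrays there, and the difference was 0.49 ± 0.19 (SE). Its limma adjusted p was 0.243, or 0.0862 with the replicate number as a block. Without control replicate 3 the second probe passed at 0.72 (adjusted p = 0.0285). A further Eif3a probe was detected on 2 arrays only and was not kept.

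The eIF2 class held 10 kept probes, 3 for eIF2 itself and 7 for its exchange factor eIF2B, which reloads eIF2 with GTP. With limma 0 of the 10 passed, and their median difference was 0.06. Eif2s2, the beta subunit of eIF2, had levels of 11.33, 11.22 and 11.39 in controls and of 11.56, 11.65 and 11.51 in Foxp1 cells on ILMN_2774435. All 3 Foxp1 arrays were above the controls, by 0.26 ± 0.09 (SE), yet the adjusted p was 0.205. Its other probe, ILMN_1256795, differed by 0.05 ± 0.10 (SE, adjusted p = 0.838), with overlapping groups. Eif2s3x, the GTP-binding gamma subunit, had levels of 13.56, 13.39 and 13.31 in controls and of 13.49, 13.44 and 13.29 in Foxp1 cells, a difference of -0.01 ± 0.11 (SE, adjusted p = 0.963).

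The eIF2B probes spanned -0.06 to 0.11. Eif2b2, the beta subunit, had levels of 11.25, 11.12 and 10.81 in controls and of 11.15, 10.97 and 10.88 in Foxp1 cells. These overlapped, and the difference of -0.06 ± 0.14 (SE, adjusted p = 0.855) was the lowest of the 7. Eif2b5, the catalytic subunit, had differences of 0.00, 0.00 and 0.11 on its 3 probes, and Eif2b1 of 0.06 and 0.07 on its pair. Eif2b4, the delta subunit, differed by 0.11 ± 0.10 (SE, adjusted p = 0.643).

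Of the eIF4 class 16 probes were kept, with a median difference of 0.05, and 0 passed. Eif4e, the cap-binding protein, had levels of 8.26, 8.11 and 8.41 in controls and of 8.53, 8.67 and 8.60 in Foxp1 cells. The groups did not overlap, the difference was 0.34 ± 0.11 (SE), and its adjusted p of 0.153 was the lowest of the family apart from Eif3h. Eif4e2, a cap-binding relative that represses translation, gave differences of 0.18 ± 0.10, -0.02 ± 0.10 and -0.13 ± 0.13 (SE) on 3 probes. On the first of these, ILMN_3065816, its levels were 9.26, 9.29 and 9.14 in controls and 9.36, 9.50 and 9.36 in Foxp1 cells, which did not overlap (adjusted p = 0.375).

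The helicase genes differed in their values. Eif4a2 had levels of 12.55, 12.45 and 12.41 in controls and of 12.61, 12.79 and 12.98 in Foxp1 cells on ILMN_2613641, with all Foxp1 arrays higher, by 0.32 ± 0.12 (SE, adjusted p = 0.207). Its second probe, ILMN_2976829, differed by 0.21 ± 0.12 (SE, adjusted p = 0.393), and there control replicate 3 exceeded a Foxp1 array. Eif4a1, the more general form of the helicase, had differences of 0.05 ± 0.19 and -0.04 ± 0.12 (SE). On the first of these probes, ILMN_2959480, its levels were 14.54, 14.38 and 13.95 in controls and 14.56, 14.45 and 14.01 in Foxp1 cells, with replicate 3 the lowest array of both groups. The scaffolds Eif4g1 and Eif4g2 and the helicase cofactor Eif4b had differences between 0.05 and 0.17.

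The inhibitors of eIF4E and its transporter gave the lowest value of this class. The 4 kept probes of Eif4ebp1, Eif4ebp2 and Eif4enif1 had differences from -0.35 to 0.00, and 0 passed. Eif4ebp2, which sequesters eIF4E and is the main such inhibitor in brain, had levels of 12.06, 11.69 and 11.28 in controls and of 11.34, 11.40 and 11.22 in Foxp1 cells. The controls spread over a wide range and overlapped the Foxp1 arrays, and the difference was -0.35 ± 0.18 (SE, adjusted p = 0.363). It was -0.16 without control replicate 1 and -0.56 without control replicate 3. Eif4ebp1 differed by 0.00 ± 0.09 (SE), and the probes of Eif4enif1 by -0.01 and -0.11.

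**Figure D2:**
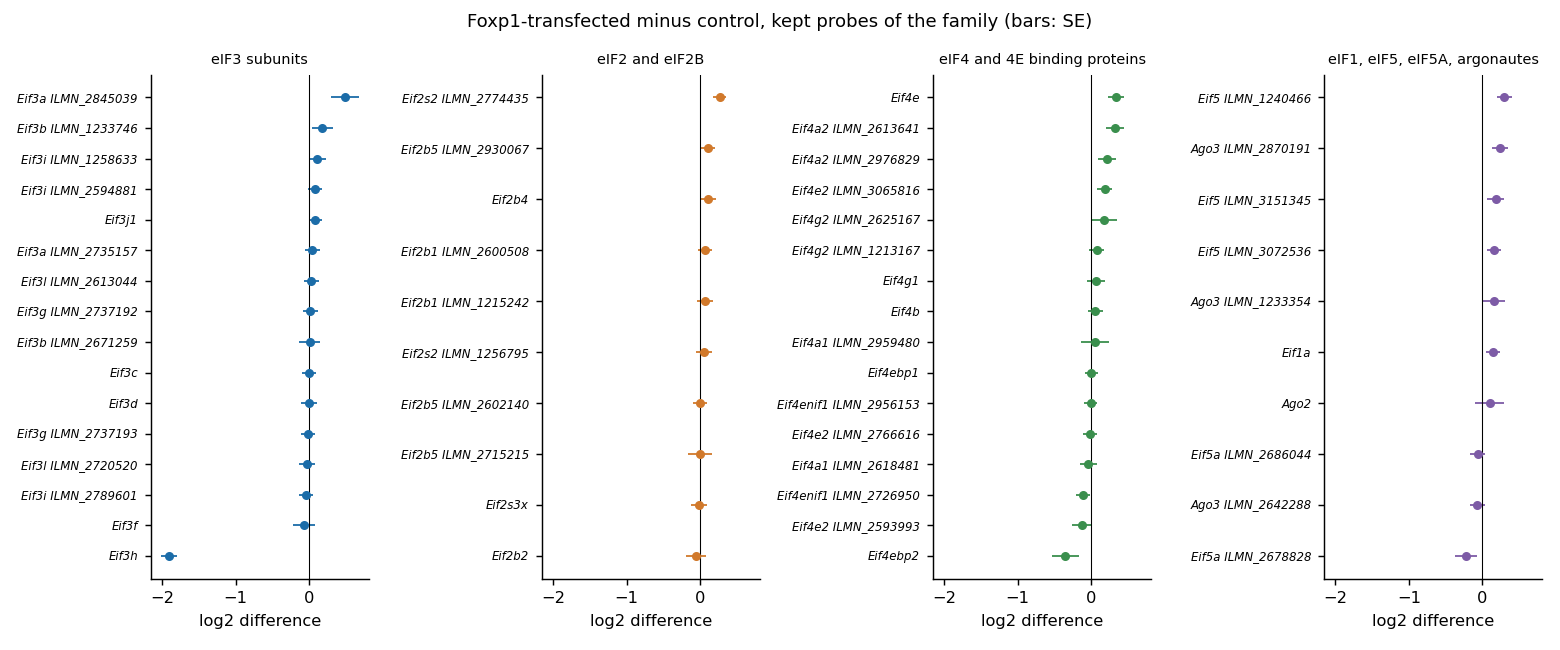
Log2 difference, Foxp1-transfected minus control, with its standard error, for the 52 kept probes of the family in 4 panels by class. Eif3h at -1.91 stands apart, and the other probes lie between -0.35 (Eif4ebp2) and 0.49 (Eif3a).

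The remaining kept probes were 6 for eIF1, eIF5 and eIF5A genes and 4 for argonautes, small-RNA effectors that the array lists under the old name Eif2c. Their median difference was 0.15, and 0 of the 10 passed. Eif5, which triggers GTP hydrolysis by eIF2 at the start codon, was the only gene with 3 probes on each of which the groups did not overlap. On ILMN_1240466 its levels were 11.75, 11.58 and 11.80 in controls and 12.09, 11.99 and 11.95 in Foxp1 cells. On ILMN_3072536 they were 13.20, 13.25 and 13.27 against 13.45, 13.49 and 13.27, so that the replicate 3 arrays there were level to the second decimal. On ILMN_3151345 they were 13.74, 13.58 and 13.78 against 13.80, 13.79 and 14.04. In this order the differences were 0.30 ± 0.10, 0.16 ± 0.10 and 0.18 ± 0.11 (SE), with adjusted p of 0.174, 0.425 and 0.437. The 3 probes read 1 gene and are not separate pieces of evidence.

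Eif1a, a scanning factor, had levels of 12.78, 12.75 and 12.74 in controls and of 12.83, 13.00 and 12.86 in Foxp1 cells. The groups did not overlap, and the difference was 0.14 ± 0.09 (SE, adjusted p = 0.462). Eif5a, named as an initiation factor but known for its role in elongation, had negative differences on both probes. On ILMN_2678828 its levels were 13.98, 13.85 and 13.43 in controls and 13.58, 13.58 and 13.43 in Foxp1 cells, a difference of -0.22 ± 0.15 (SE, adjusted p = 0.473). Control replicate 3 was as low as the lowest Foxp1 array. On ILMN_2686044 the difference was -0.06 ± 0.10 (SE, adjusted p = 0.798). Of the argonautes, Ago2 differed by 0.10 ± 0.20 (SE), and Ago3 gave 0.24, 0.16 and -0.07 on 3 probes, 2 of them detected on fewer than 6 arrays.

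Counted together without Eif3h, 0 of the 51 kept family probes passed limma's adjusted p of 0.05. At an unadjusted p under 0.05 there were 5 higher and 0 lower (9.8% of the 51), where 8.23% of all kept probes were higher and 9.84% lower at that level. The 5 were the probes named above for Eif3a (ILMN_2845039), Eif2s2, Eif4a2, Eif4e and Eif5. The groups did not overlap for 9 of the 51 probes (17.6%), all higher in Foxp1 cells, against 24.7% of all kept probes, 11.4% higher and 13.4% lower. Of the 51 differences 33 were positive (64.7%), against 49.4% of all kept probes, and their median was 0.05. With arrays scaled to a common median in place of quantile normalization 39 were positive (76.5%), and without 1 array between 29 and 41, so the split of signs depends on these choices.

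The standard errors of the family's differences were about as large as those of other probes. They do not show whether the brightest probes still follow the amount of RNA. Eif4a1 ILMN_2959480, the family probe with the highest mean level, had intensities of 23371, 19894 and 19684 on control arrays 1 to 3. The median intensities of these arrays were 29.2, 31.8 and 77.0. Whether differences of such bright probes are made smaller was not tested. The median standard error was 0.10 for the 51 probes and 0.12 over all kept probes, and the smallest difference that passed anywhere on the array was 0.42 in size. The largest family differences beside Eif3h, 0.49 for Eif3a and -0.35 for Eif4ebp2, came from probes with standard errors of 0.19 and 0.18. For 21 of the 51 probes (41.2%) the replicate 3 array was the highest, or the lowest, of its group in both groups, and the same held for 42.7% of all kept probes.

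**Figure D3:**
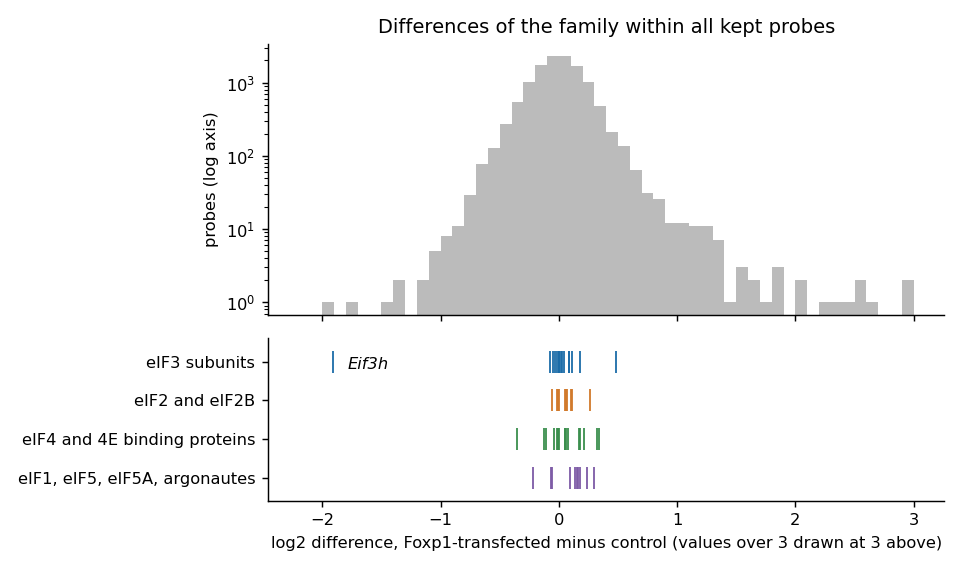
Upper panel: histogram of the log2 differences of all 12136 kept probes, with a log count axis. Lower panel: a tick for each kept family probe by class, on the same horizontal axis. The Eif3h tick lies at the lower end of the histogram and the other ticks between -0.35 and 0.49. The quartiles of all kept probes are -0.14 and 0.14.

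Of the 31 kept genes, 16 beside Eif3h had 2 or more kept probes, 37 probes in all. In 9 of these genes the differences had 1 sign on all probes and in 7 the signs were mixed, with a median span between probes of 0.12. The widest span was 0.45, in Eif3a. Eif3h had 1 probe, so for this gene no such comparison between probes exists.

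The 15 probes that were not kept were detected on 0 arrays in 13 cases and on 2 arrays in the other two. As a result 10 genes have no value here: Eif2s1, Eif3e, Eif5b, Eif5a2, Eif1ax, Eif2s3y, Eif4e1b, Eif4ebp3, Ago1 and Ago4. Several of these encode factors that all cells use, such as Eif2s1, the alpha subunit of eIF2 that stress kinases phosphorylate, Eif3e, a core eIF3 subunit, and Eif5b, which joins the ribosomal subunits. For such probes, failure to detect a signal says nothing about the level of the gene.

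Initiation factors listed on the array under other symbols lie outside the family as defined, and were looked up by their current names after the data were seen. They comprised 13 probes for 10 genes, of which 11 probes were kept and 0 passed. Their differences lay between -0.11 for Eif4h, a helicase cofactor, and 0.18 for Eif2a, a factor that can deliver initiator tRNA independently of eIF2 (lowest adjusted p = 0.36). They include Eif3k, an eIF3 subunit listed as 1200009C21Rik, at -0.05 ± 0.19 (SE). Eif3m, listed as Ga17, was detected on 0 arrays. The median of the 11 was 0.06.

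Of the genes around Eif3h on mouse chromosome 15, the 3 nearest with a kept probe on each side did not pass. Counted in the order of the RefSeq gene table they lie up to 52 genes away. On one side these were Trps1 (0.05 ± 0.13, SE), Ebag9 (0.07 ± 0.17, SE) and Tmem74 (0.29 ± 0.14, SE). On the other they were Utp23, the adjacent gene (-0.02 ± 0.09, SE), Rad21, a cohesin subunit (0.47 ± 0.36, SE), and Med30 (0.06 ± 0.09, SE). All of these groups overlapped, with adjusted p from 0.328 to 0.932.

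Genes around initiation were described by list, and where several kept probes read a gene the brightest one stood for it. Over the 8789 genes so defined, 2.73% passed, 139 higher and 101 lower. Of 11 kept genes of the eIF2 kinases, their counteracting phosphatase and stress effectors, 1 rose, 0 fell and 10 did not pass (median 0.08). The riser was Ddit3, a transcription factor induced by eIF2 phosphorylation, with levels of 9.69, 9.79 and 9.41 in controls and of 10.66, 10.68 and 10.58 in Foxp1 cells (1.01 ± 0.12, SE, adjusted p = 0.00594). Its adjusted p was 0.0548 without Foxp1 replicate 1 and 0.0583 without Foxp1 replicate 2, with differences of 1.00 and 0.99. The kinase genes Eif2ak1, Eif2ak2 and Eif2ak3 had differences of -0.06, -0.07 and 0.08, and Eif2ak4 was not kept. Atf4 and the phosphatase subunits of the list are given after their values were seen. Atf4, a stress effector, differed by 0.14 ± 0.09 (SE, limma adjusted p = 0.474), with overlapping groups. Ppp1cb, the catalytic phosphatase subunit, differed by 0.10 ± 0.13 (SE, limma adjusted p = 0.739), and its groups overlapped too. Ppp1r15a, the stress-induced one, had levels of 10.98, 11.04 and 10.52 in controls and of 11.48, 11.53 and 11.49 in Foxp1 cells. The groups did not overlap, and the difference of 0.65 ± 0.14 (SE, adjusted p = 0.0607) passed with the replicate number as a block (adjusted p = 0.0474), which makes 2 risers. Ppp1r15b, the constitutive one, had levels of 8.34, 8.16 and 8.44 in controls and of 8.95, 8.87 and 8.71 in Foxp1 cells. Its groups did not overlap either, and its difference of 0.53 ± 0.11 (SE) passed neither without the block (adjusted p = 0.0544) nor with it (adjusted p = 0.0619).

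The other 5 lists held no gene that passed. Of 25 kept initiation regulators 0 passed, and Denr, a factor of re-initiation, had the smallest p (0.27 ± 0.10, SE, adjusted p = 0.217, list median 0.00). Of 11 elongation factors 0 passed (median 0.00), with Eef1e1, a scaffold of the synthetase complex despite its name, at 0.34 ± 0.10 (SE, adjusted p = 0.137). Of 10 termination and recycling factors 0 passed (median 0.13), with the helicase of nonsense-mediated decay, Upf1, at 0.27 ± 0.16 (SE, adjusted p = 0.405).

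Of 20 aminoacyl-tRNA synthetases and partners 0 passed (median 0.09), with Yars at 0.63 ± 0.17 (SE, adjusted p = 0.11). The list of eIF3 relatives in the COP9 signalosome and the proteasome lid, drawn up for shared PCI and MPN domains, had 18 kept genes. It also held Psmd1 and Psmd2, subunits of the proteasome base without these domains. Of the 18 genes 0 passed (median -0.02). The differences lay between -0.14 and 0.10, with the smallest p for Psmd13, a lid subunit (-0.14 ± 0.09, SE, limma adjusted p = 0.454). At an unadjusted p under 0.05, limma gave 3 of 11 genes of the eIF2 kinase list, 4 of 25 initiation regulators and 3 of 11 elongation factors. It gave 0 of 10 termination factors, 3 of 20 synthetases and 0 of 18 genes of the last list. Over all kept probes the share was 18.1%, counted by probe and not by gene.

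**Figure D4:**
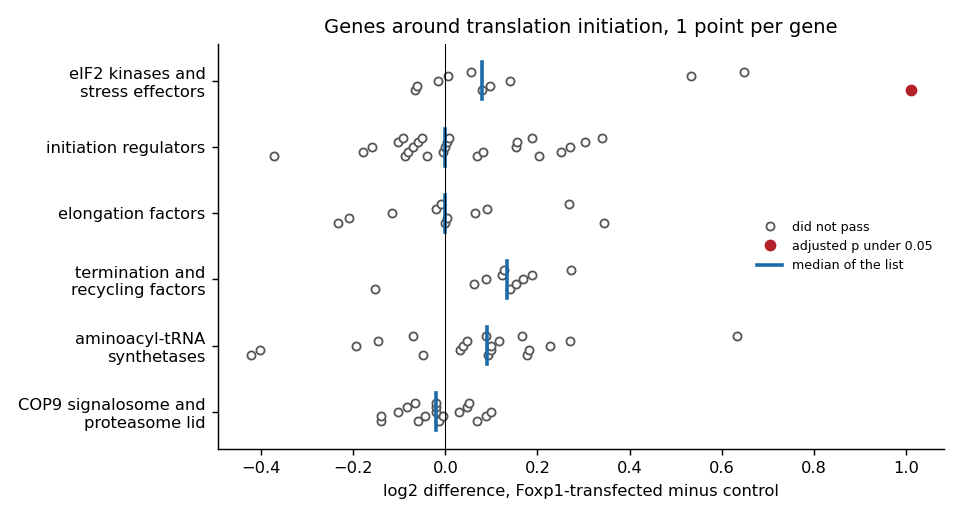
Log2 difference, Foxp1-transfected minus control, of each kept gene in 6 lists around translation initiation, with a blue bar at the list's median. The filled red point is Ddit3 at 1.01, and all other genes are open points between -0.42 and 0.65.

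Promoter sequence was searched for the forkhead core TAAACA on both strands, because Foxp1 is a forkhead factor. RefSeq promoters of build GRCm38.p6, each 300 bases from 250 before to 50 after the gene start, were found for 32 of the 41 family genes, not including Eif3h. The core was in 3 of their 44 promoters (6.82%), against 13.4% of all 32851 promoters, and in 0 of the 8 eIF3 genes with a promoter in the table. The matches lay in 3 genes, and 2 of them are shown here. All Foxp1 arrays were higher on Eif4a2 ILMN_2613641 and Eif2s2 ILMN_2774435, as for 11.4% of all kept probes. On the other kept probe of each gene, ILMN_2976829 and ILMN_1256795, the groups overlapped, and no probe of either gene passed. A link between the core and these levels was not tested. Capitals mark the core or its reverse complement TGTTTA, on the strand of the gene, at chr16:23107247-23107292 (plus strand) for Eif4a2 and chr2:154893023-154893068 (minus strand) for Eif2s2.
Eif4a2: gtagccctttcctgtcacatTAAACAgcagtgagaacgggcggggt
Eif2s2: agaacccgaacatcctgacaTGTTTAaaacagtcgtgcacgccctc
The core was followed by 195 bases up to the gene start in Eif4a2 and by 136 in Eif2s2. A match of letters is a description of the window and not a binding site.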

How the data were processed

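Per the file headers, the authors deposited linear probe intensity values, each with its detection p-value. GenomeStudio is named in the submitters' processing notes, with no version. Since 29.5% to 31.6% of an array's intensities were negative, background had been subtracted. The authors' deposited second table was read as log2, since its columns followed the log2 intensities of their own arrays (r of deviations from the probe mean 0.912 to 0.959, at most 0.431 for other arrays). Its method is not given in the sources used here, and it served as an alternative.

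Intensities were corrected and quantile-normalized with neqc of limma 3.58.1 in R 4.3.3 (offset 16, background inferred from the detection p-values). For dim probes the offset makes differences smaller. The 2-sided test of lmFit and eBayes compared the groups over 12136 kept probes, all of which entered the Benjamini-Hochberg adjustment. The procedure was tried on simulated data with noise drawn independently for each array. Those data lack the shift that the replicate 3 arrays share, so the trial cannot tell how this shift affects the p-values. The members, the lists and the naming rule were chosen with earlier results of these data known. The rule names every kept eIF3 probe, the probe with the smallest p in each direction and the one with the highest mean in other classes, each probe of genes with several, up to 3 genes per list past the threshold or else the 1 with the smallest p, and the nearest neighbours of Eif3h. The list of initiation regulators held Ndel1, which has another function, by mistake. All 67 family symbols matched a RefSeq gene, 38 as current names and 29 as synonyms.

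The main fit did not use the replicate numbers of the titles, and it was repeated with the number as a block. No label states a pairing. Same-numbered arrays deviated together from their group means (r of 0.257, 0.115 and 0.401, each above 0.1). Deviations within a group cancel out, so a shift of the replicate 3 arrays in both groups can also give a positive r for numbers 1 and 2. These correlations therefore do not show that same-numbered arrays are pairs. Array number and signal over background limit the precision. The files name no genome build, so only the RefSeq promoter windows carry coordinates.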

Additional observations from a re-analysis of the deposited data

How the results depend on the processing

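The results were recomputed under 15 alternatives: no background correction, an offset of 50, median scaling, no detection filter, detection on all 6 arrays, the authors' processed values, array weights, the replicate block, each array left out in turn and, chosen after seeing the data, both replicate 3 arrays left out. With the replicate block the count of family probes past the threshold beside Eif3h stayed at 0, and the block changed no call of the family. That count was 3 with array weights (Eif3a ILMN_2845039, adjusted p = 0.0391, Eif4e, 0.0342, and Eif5 ILMN_1240466, 0.0378), a setting under which 1030 of all kept probes passed against 317, and 1 without both replicate 3 arrays (Eif3a ILMN_2845039, 0.0448). Over the 6 fits without 1 array it ran from 0 to 1, the 1 being Eif3a ILMN_2845039 without control replicate 3. The Eif3h difference was -1.7 with an offset of 50 and -1.72 in the authors' processed values, and lay between -2.03 and -1.7 over all alternatives and between -1.97 and -1.83 over the fits without 1 array. It was the lowest of all kept probes under each alternative except without control replicate 2, where it ranked 2. The median of the remaining probes was 0.0455 with no detection filter, which adds undetected probes, and 0.0916 to 0.188 without 1 array. The medians of the eIF3, eIF2 and eIF4 classes stayed within the spread between arrays, from -0.0204 to 0.0757, from 0.0237 to 0.0948 and from -0.0129 to 0.106. Of 763 comparisons of single family probes with their main value, 758 kept the side of the threshold and 5 newly passed. Uncalled differences near 0 changed sign in at most 9 of the 51 probes under 1 alternative. The same alternatives were applied to the 95 genes of the pathway lists after seeing the data. Instead of 1 gene, 3 passed with an offset of 50, with detection on all 6 arrays and in the authors' processed values, and 2 with median scaling, with the replicate block and without both replicate 3 arrays. With array weights 5 passed, and without 1 array 0 to 4. The additional ones were Ppp1r15a, Ppp1r15b, Eef1e1 and Mars1, of which Mars1 was lower. Over all kept probes, 207 passed with no detection filter and 35 to 373 without 1 array, fits that also rest on fewer samples. The causes were not tested. For dim probes the signal over background limits what can be seen, and a miss of the threshold does not show equal levels.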
